A study of Homo sapiens with 8 samples.

Results

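KBTBD7 and KBTBD6 are paralogous adaptors of the CUL3 ubiquitin ligase, described here with 4 related KBTBD adaptors (KBTBD2, KBTBD3, KBTBD4 and KBTBD8), with CUL3 itself and with the substrate TIAM1. These 8 genes were taken by name from the 20719 gene IDs listed. All 8 passed the filter on low counts, which kept 11097 genes, TIAM1 only through its counts in the GFP line. KBTBD3 depended on GFP DMSO, where it was highest, and did not pass without GFP DMSO replicate 1. The set was chosen by the values of KBTBD7 in SMARCB1 Dox against SMARCB1 DMSO, where its ribosome occupancy was lower. These values are therefore given without a test, as are those of the other members in that comparison.

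The cells are G401, cells of a kidney rhabdoid tumor without SMARCB1, a subunit of the mSWI/SNF chromatin remodelers. They carried a Tet-On construct for SMARCB1 or, as the control line, for GFP. SMARCB1 Dox and GFP Dox cells received 0.1 μg/ml doxycycline for 12 h, and SMARCB1 DMSO and GFP DMSO cells received the solvent for the same time. Ribosome-protected fragments were sequenced from 2 libraries in each of the 4 groups, and RNA-seq was not analysed here, so a change in mRNA level and a change in its translation cannot be told apart.

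CUL3 builds the scaffold of a ubiquitin ligase in which a BTB domain protein holds the substrate. The KBTBD proteins join a BTB domain to Kelch repeats, so that the same protein binds CUL3 and recruits the target. KBTBD6 and KBTBD7 work together, bind proteins of the GABARAP family on membranes, and lead to the ubiquitination and degradation of TIAM1, an exchange factor that activates RAC1.

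The SMARCB1 Dox libraries held 11407983 and 6005867 counts on genes, SMARCB1 DMSO 5924443 and 13700539, GFP Dox 6933132 and 6429574, and GFP DMSO 12001296 and 14000039. With 2553 and 1750 counts, SMARCB1 itself was seen only in SMARCB1 Dox, against 0 in all 6 other libraries. The SMARCB1 Dox label and the SMARCB1 transgene thus go together. Induction of GFP was not checked, so the labels of the GFP groups are taken as given. VIM, a marker of mesenchymal cells, lay between 1212 and 3384 CPM (counts relative to the scaled library total), with every library of the SMARCB1 line above every library of the GFP line. PTPRC of blood cells and ALB of liver had 0 counts in all 8 libraries, and PECAM1 of endothelium had 0 to 3. GFP Dox replicate 1 stood apart. Reads with several alignments made up 56.4% of its entries against 25.6% to 39.7% in the other libraries, and its correlation with its replicate (Pearson r = 0.95 across genes, which are not independent) was the lowest within a line. Some of the results are also given without it.

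The paralogs lie on the minus strand of chromosome 13, each with its coding sequence in 1 exon. KBTBD7 spans chr13:41189834-41194569 of GRCh38 and KBTBD6 chr13:41127569-41132802, with 57031 bases and 0 genes with counts between them. Their coding sequences, of 2052 and 2022 bases, were identical at 1856 of 2022 aligned bases, or 91.8%. The longest identical run had 301 bases. Among the other pairs of KBTBD members the identity was 47.7% to 55.6% and the longest run 14 bases.

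This likeness bears on the counts, because a footprint that aligns to both genes is not counted by HTSeq. Of the 2025 windows of 28 bases in the KBTBD7 coding sequence, 1347 (66.5%) occurred once in the genome, and of the 1995 windows in KBTBD6, 1317 (66.0%) did. All 678 other windows of each gene were shared with the paralog. For the remaining 6 members between 98.1% and 99.8% of the windows were unique. The counts of KBTBD7 and KBTBD6 thus come from the stretches where the genes differ, and their levels are uncertain to that extent.

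The first pair of sequences shows the stretch with the most differences, coding bases 1399 to 1488, where footprints can be assigned to a gene. It lies at chr13:41192770-41192859 for KBTBD7 and chr13:41131024-41131113 for KBTBD6 of hg38, on the minus strand within the coding exon, and capitals mark the 21 bases that differ.

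KBTBD7: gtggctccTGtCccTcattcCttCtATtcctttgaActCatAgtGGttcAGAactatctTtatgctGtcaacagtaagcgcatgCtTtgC

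KBTBD6: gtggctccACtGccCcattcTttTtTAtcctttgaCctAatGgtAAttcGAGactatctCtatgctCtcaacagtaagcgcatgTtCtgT

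The next sequence shows the opposite case. It is the product of the qPCR primers listed for KBTBD7, with the primer sites in capitals, at coding bases 926 to 1036 (chr13:41193222-41193332, minus strand of hg38). Both primers matched KBTBD6 with 0 mismatches as well, at chr13:41131476-41131586, where the 111 bases are identical. Of its 84 windows of 28 bases, 0 were unique, so a qPCR signal from this product covers both genes and footprints within it are absent from the counts of either.

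KBTBD7 and KBTBD6 product: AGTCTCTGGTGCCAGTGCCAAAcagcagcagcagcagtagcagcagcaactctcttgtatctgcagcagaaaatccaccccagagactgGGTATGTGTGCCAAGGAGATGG

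**Figure D1:**
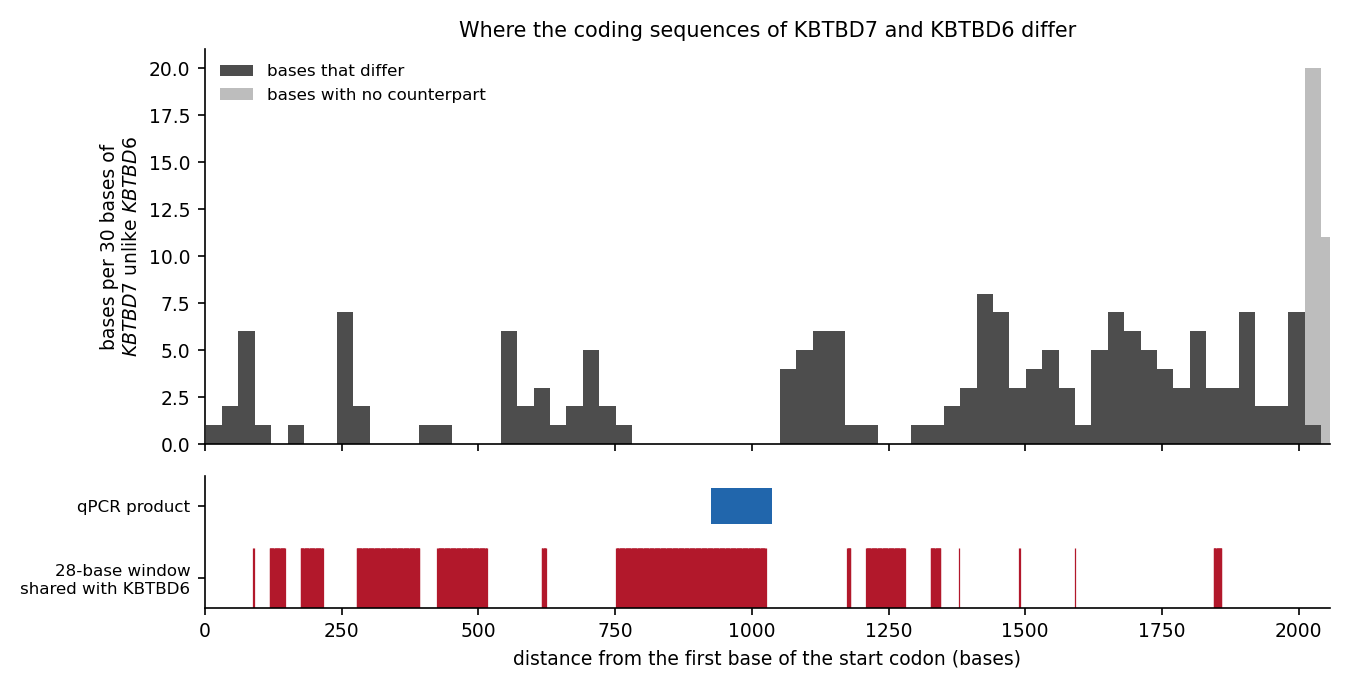
Differences between the paralogs along the coding sequence of KBTBD7, in bases from the start codon. The upper bars count bases per 30 that differ from KBTBD6 (dark) or have no counterpart there (light); the lower marks show where a 28-base window begins that both genes share, with the qPCR product inside the longest shared stretch.

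KBTBD7 had 9.62 and 10.6 CPM in SMARCB1 Dox (115 and 67 counts) and 32.4 and 22.9 CPM in SMARCB1 DMSO (194 and 294 counts). It had 23.7 and 20.3 CPM in GFP Dox and 28.5 and 26.8 CPM in GFP DMSO. Both SMARCB1 Dox libraries lay below the other 6, and the SMARCB1 DMSO libraries lay on either side of the GFP DMSO libraries. SMARCB1 Dox averaged 10.1 ± 0.707 CPM and SMARCB1 DMSO 27.6 ± 6.68 CPM (mean ± SD, n = 2 each).

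The fitted log2 difference of KBTBD7 between SMARCB1 Dox and SMARCB1 DMSO was -1.44 (standard error 0.29), the 88th lowest among the 11097 genes tested. This is the value that chose the gene. In GFP Dox against GFP DMSO, which the choice did not use, the log2 difference was -0.33 (standard error 0.28), and it did not pass (adjusted p = 1 in the quasi-likelihood test of edgeR after Benjamini-Hochberg correction). Both GFP Dox libraries were nevertheless below both GFP DMSO libraries, and without GFP Dox replicate 1 the value was -0.45. The difference between the Dox effects of the lines was -1.11 (standard error 0.41), given without a test since it shares the SMARCB1 libraries with the choice.

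KBTBD6 had 15.1 and 20.1 CPM in SMARCB1 Dox (181 and 127 counts) and 15.8 and 17.1 CPM in SMARCB1 DMSO (95 and 220 counts). It had 12.6 and 22.04 CPM in GFP Dox and 19.0 and 21.95 CPM in GFP DMSO. Unlike those of KBTBD7, the Dox and DMSO libraries of the SMARCB1 line overlapped, and the lowest library of all was GFP Dox replicate 1. Its log2 difference was 0.09 (standard error 0.33) in the SMARCB1 line. In the GFP line it was -0.24 (standard error 0.32, adjusted p = 1, quasi-likelihood test of edgeR) and 0.10 without GFP Dox replicate 1.

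The ratio of KBTBD7 to KBTBD6 counts compares the paralogs within a library and is free of its scaling. It was 0.635 and 0.528 in SMARCB1 Dox, with 95% exact binomial intervals of 0.498 to 0.807 and 0.386 to 0.715. It was 2.04 and 1.34 in SMARCB1 DMSO, 1.88 and 0.919 in GFP Dox and 1.50 and 1.22 in GFP DMSO. KBTBD6 had more counts than KBTBD7 in both SMARCB1 Dox libraries, and the reverse held in 5 of the other 6. The exception was GFP Dox replicate 2, whose interval of 0.724 to 1.17 includes equal counts.

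Such intervals cover counting error only, and the SMARCB1 Dox ratios rest on the libraries that chose KBTBD7. The GFP Dox libraries differed from each other by more than these intervals, and the higher ratio came from replicate 1, the library with the most reads of several alignments. The part of these reads in the ratio was not tested. The sum of the paralogs was 24.8 and 30.8 CPM in SMARCB1 Dox, against 48.2 and 40.0 CPM in SMARCB1 DMSO.

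**Figure D2:**
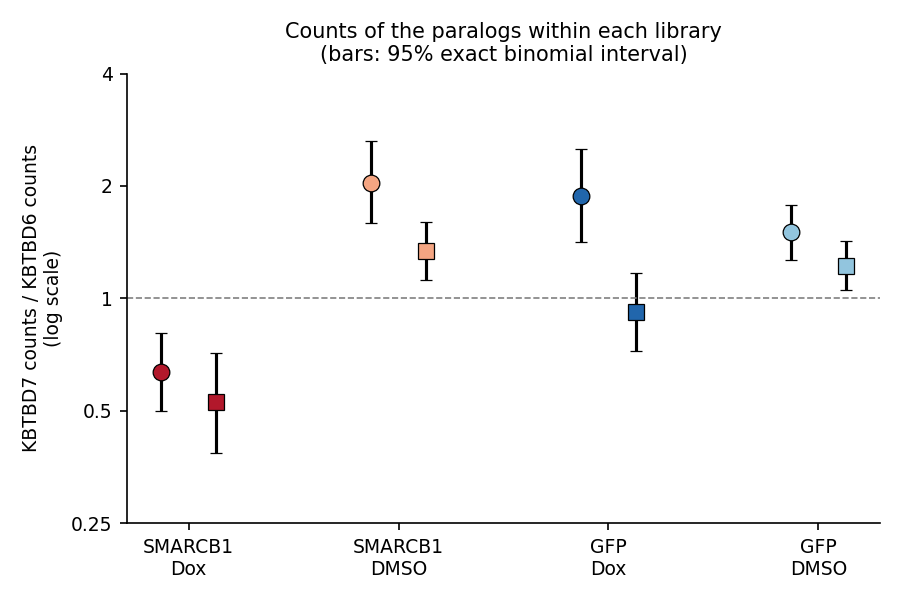
Counts of KBTBD7 divided by counts of KBTBD6 in each of the 8 libraries, on a log scale, by group; circles are replicate 1, squares replicate 2 and bars 95% exact binomial intervals. The SMARCB1 Dox libraries, at 0.635 and 0.528, lie below the other 6, which range from 0.919 to 2.04.

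Levels between genes were compared as CPM per kb of coding sequence, averaged over all 8 libraries, so that the SD includes differences between the groups. CUL3 was the highest of the 8 at 160 ± 31.6 CPM per kb (SD, n = 8). KBTBD8 followed at 43.9 ± 17.9 and KBTBD2 at 31.6 ± 3.73, and their libraries overlapped. KBTBD4 at 14.1 ± 3.45, KBTBD7 at 10.6 ± 3.96 and KBTBD6 at 8.89 ± 1.68 came next, again with overlapping libraries, and the highest KBTBD4 library (18.7) was above the lowest KBTBD8 library (17.3). TIAM1 at 0.874 ± 0.927 and KBTBD3 at 0.465 ± 0.361 were the lowest, and every library of either was below every library of the 6 others. The mean of TIAM1 describes neither line, since its libraries lay between 0 and 0.0773 CPM per kb in the SMARCB1 line, below each KBTBD3 library there, and between 1.44 and 2.01 in the GFP line. When only windows with a unique alignment counted as length, KBTBD7 was at 16.2, KBTBD4 at 16.1 and KBTBD6 at 13.7 CPM per kb. For KBTBD4 this also takes the canonical coding sequence of 1602 bases in place of all 1791 annotated coding bases, so the order of these 3 genes is not settled.

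**Figure D3:**
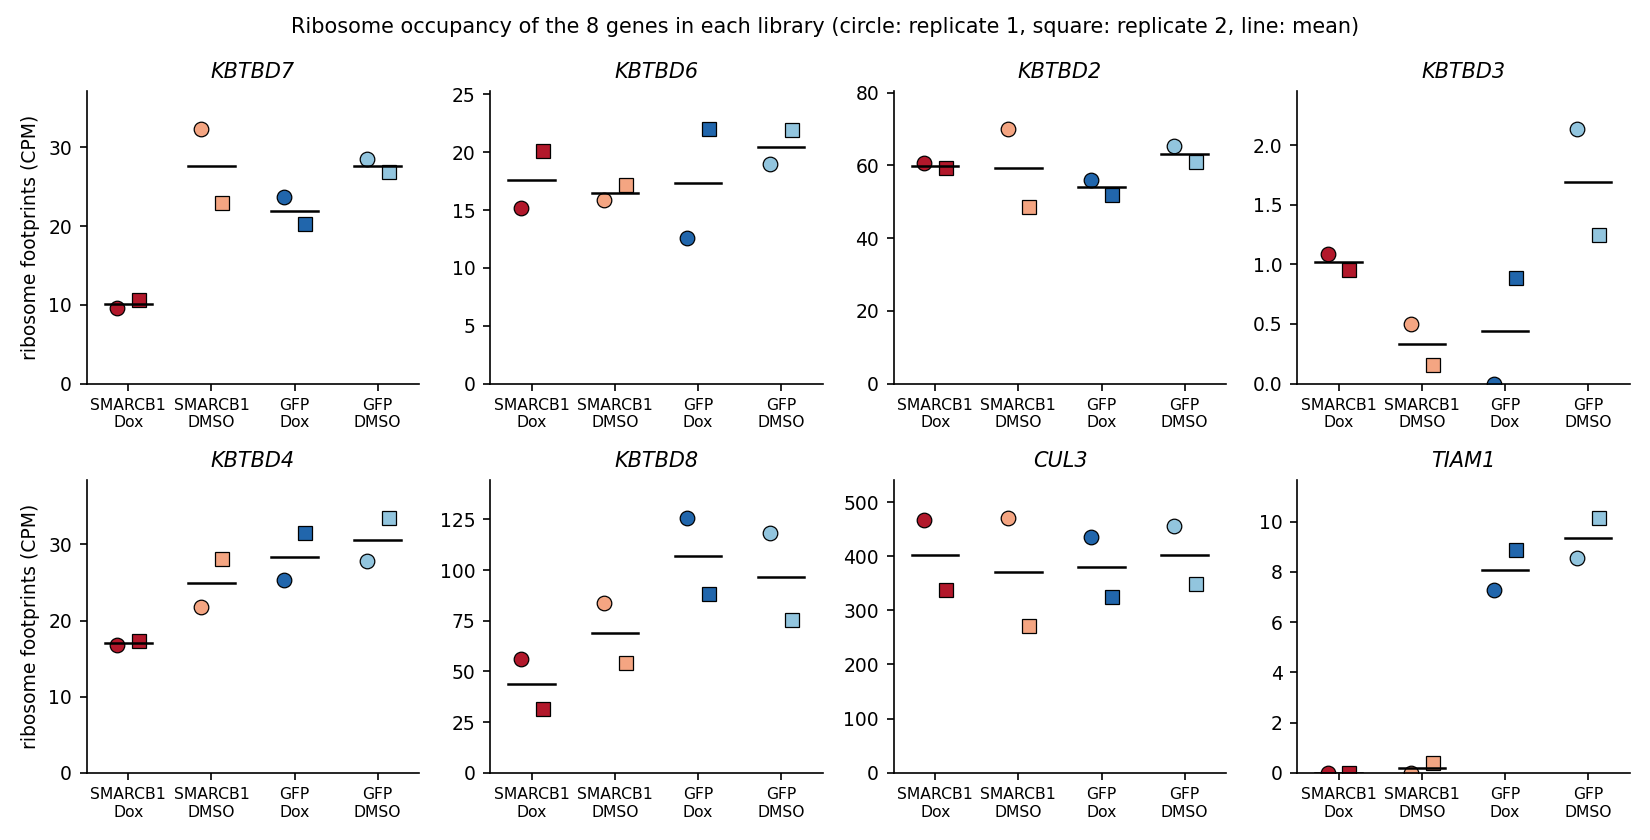
Ribosome occupancy in CPM of the 8 members in each library by group, each panel with its own axis from 0; circles are replicate 1, squares replicate 2 and lines group means. KBTBD7 is low in both SMARCB1 Dox libraries, and TIAM1 is near 0 in all 4 libraries of the SMARCB1 line.

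CUL3, the scaffold, is encoded at chr2:224470150-224585397 of GRCh38 in 16 coding exons. It had 468 and 338 CPM in SMARCB1 Dox, 471 and 271 in SMARCB1 DMSO, 435 and 324 in GFP Dox and 455 and 349 in GFP DMSO. The 4 groups overlapped, and in each of them replicate 1 was the higher library. Its log2 difference was 0.12 (standard error 0.30) between SMARCB1 Dox and SMARCB1 DMSO, and it lay between -0.22 and 0.57 when 1 library was left out. The smallest difference that could be detected was not worked out, so the overlap does not show that CUL3 is unchanged.

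KBTBD2, which targets the regulatory subunit PIK3R1 of the insulin pathway, had 60.6 and 59.1 CPM in SMARCB1 Dox and 70.1 and 48.5 CPM in SMARCB1 DMSO, which overlapped, with 56.1 and 51.8 CPM in GFP Dox and 65.4 and 60.9 CPM in GFP DMSO. KBTBD4 had 16.8 and 17.3 CPM in SMARCB1 Dox and 21.9 and 28.05 CPM in SMARCB1 DMSO. In the GFP line it had 25.3 and 31.5 CPM with Dox and 27.8 and 33.5 CPM with DMSO. The SMARCB1 Dox libraries of KBTBD4 were thus the lowest of the 8. Its log2 difference between SMARCB1 Dox and SMARCB1 DMSO was -0.56 (standard error 0.28), less than that of KBTBD7.

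KBTBD8, an adaptor that acts on NOLC1 and TCOF1 in neural crest specification, had 56.0 and 31.2 CPM in SMARCB1 Dox and 83.9 and 54.4 CPM in SMARCB1 DMSO. In the GFP line it had 126 and 88.0 CPM with Dox and 118 and 75.2 CPM with DMSO. The lowest library was in SMARCB1 Dox and the highest in GFP Dox, while SMARCB1 DMSO overlapped with its neighbours on either side. In all 4 groups replicate 1 was the higher library, and among libraries of the same number those of the SMARCB1 line were below those of the GFP line, although the labels do not say that the numbers pair libraries. Its log2 difference between SMARCB1 Dox and SMARCB1 DMSO was -0.65 (standard error 0.33). It lay between -1.14 and -0.30 when 1 library was left out.

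KBTBD3 was barely covered, with 13 and 6 counts in SMARCB1 Dox, 3 and 2 in SMARCB1 DMSO, 0 and 6 in GFP Dox and 26 and 18 in GFP DMSO. Its fitted log2 difference between SMARCB1 Dox and SMARCB1 DMSO was 1.80 with a standard error of 1.17. In the SMARCB1 line the libraries of KBTBD7 and KBTBD4 were lower with Dox and those of KBTBD3 higher, without overlap, and those of the other 5 members overlapped. Of all genes tested, 18.3% were lower and 17.3% higher without overlap, and edgeR called 2 of the 11097 genes, or 0.018%, in SMARCB1 Dox against SMARCB1 DMSO. Since that comparison chose KBTBD7, nothing is read from these counts.

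Whether Dox with induction of GFP alters these genes was asked in GFP Dox against GFP DMSO. There, 0 of the 8 members were called at an adjusted p below 0.05 and a fold change above 2, as were 0.0% of all genes tested. The adjusted p was 1 for each member in edgeR's quasi-likelihood test. At an unadjusted p below 0.05 the count was 0 members and 240 of all genes, and DESeq2 also called 0 genes. The fitted log2 differences were between -0.33 and 0.14 for the 7 members other than KBTBD3, which had -1.85 (standard error 1.08). KBTBD3 rests on few counts, and it depended for the filter on GFP DMSO, the higher group here. It was at -0.92 without GFP Dox replicate 1. Without replicate 2 GFP Dox had 0 counts of KBTBD3, so its value there, -7.08, has no fixed size. Without GFP Dox replicate 1 the values of KBTBD4 and KBTBD8 changed sign to 0.04 and -0.14, and without GFP Dox replicate 2 that of CUL3 did, to 0.11. Without GFP Dox replicate 1 edgeR still called 0 genes, and without replicate 2 it called 101 higher and 46 lower. The GFP Dox libraries of KBTBD7, KBTBD2 and KBTBD3 lay below their GFP DMSO libraries, as did those of 13.2% of all genes, and those of the other 5 members overlapped. With 2 libraries against 2 such a separation is common, so the 3 members are not a result. That no member passed does not show that there is no difference.

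**Figure D4:**
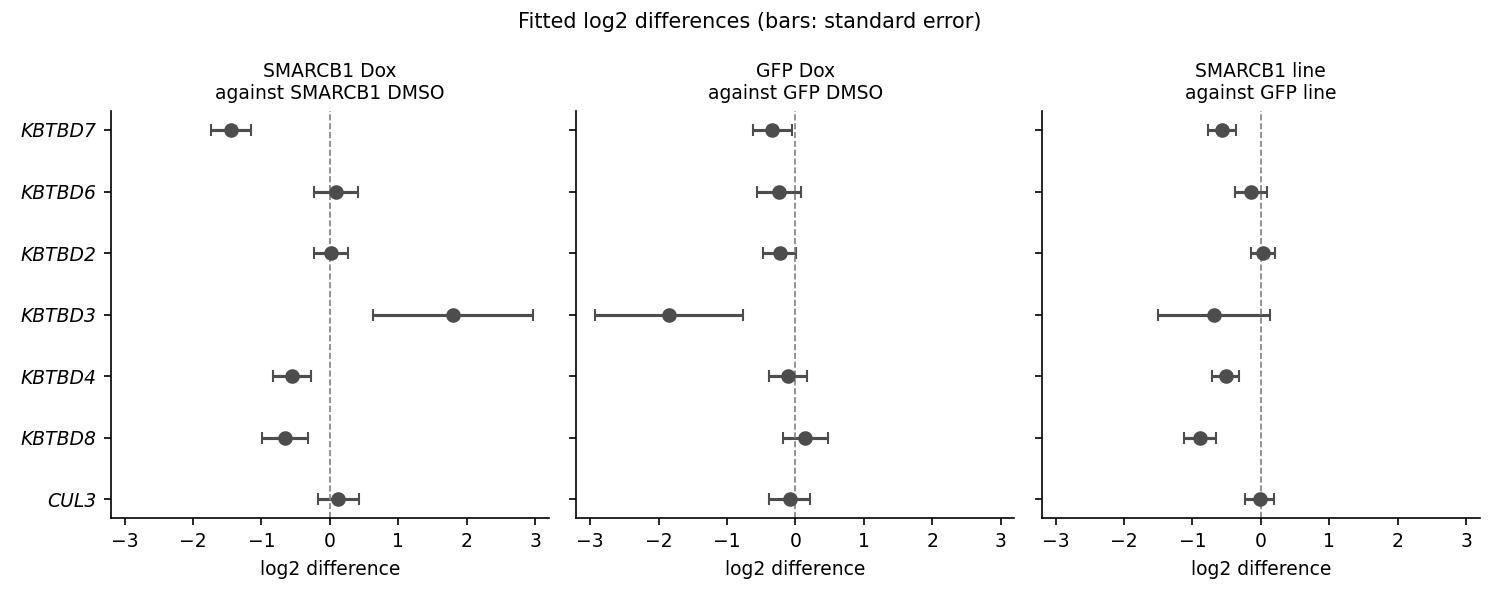
Fitted log2 differences with standard errors for 7 members in SMARCB1 Dox against SMARCB1 DMSO (left), GFP Dox against GFP DMSO (middle) and the SMARCB1 line against the GFP line (right). KBTBD7 is at -1.44, -0.33 and -0.56; TIAM1, near 0 counts in the SMARCB1 line, is left out since its fitted values have no fixed size.

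The lines were then compared over both treatments, the mean of SMARCB1 Dox and SMARCB1 DMSO against the mean of GFP Dox and GFP DMSO. TIAM1 (chr21:31118416-31559977 of GRCh38, minus strand, 25 coding exons) had 0 and 0 counts in SMARCB1 Dox and 0 and 5 in SMARCB1 DMSO. It had 44 and 60 counts in GFP Dox and 104 and 146 in GFP DMSO, or 7.28 and 8.87 CPM and 8.56 and 10.1 CPM. All 4 libraries of the GFP line were above all 4 of the SMARCB1 line, whatever the treatment.

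Whether each line is a clone is not given in the sources used here, so a difference between the lines cannot be assigned to the construct. TIAM1 was lower in the SMARCB1 line, with 5 counts against 354 in the pooled libraries. After scaling for depth the GFP line was 66.7-fold higher, with a 95% exact interval of 28.3 to 207 for counting error. Against the 3 counts that a count of 0 allows over the pooled SMARCB1 Dox libraries, the observed GFP Dox level was 49.4-fold higher. This value leaves out the counting error of GFP Dox. TIAM1 passed over all genes (adjusted p = 6.54e-06 in the quasi-likelihood test of edgeR after Benjamini-Hochberg correction). It had passed the filter on low counts only through the GFP line, where it was higher, but was still called with no such filter. Under DMSO alone, where SMARCB1 was not induced, TIAM1 passed as well (adjusted p = 0.000576, quasi-likelihood test of edgeR), beside 2.49% of all genes called lower. That test was run only with the filter, which TIAM1 passed through the GFP line, so its p is not used as support. All 5 counts of the SMARCB1 line came from SMARCB1 DMSO replicate 2. Without it the GFP line was 72.7-fold higher, against 3 counts over the remaining pooled libraries of the SMARCB1 line. The counting error of the GFP line is again left out. In bulk libraries fewer cells with TIAM1 footprints and fewer footprints per cell cannot be told apart.

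TIAM1 was the 1 gene called between the lines among the 7 members other than KBTBD7, beside calls for 7.35% of all genes (3.89% with the SMARCB1 line higher, 3.46% with it lower). With so many genes apart between the lines, 1 of 7 says little about the members as a group. TIAM1 also passed the filter on low counts only through the GFP line, where it was higher. KBTBD8 was lower by adjusted p, with a log2 difference of -0.89 (standard error 0.24, adjusted p = 0.0236, quasi-likelihood test of edgeR), but its 1.85-fold difference stayed under the fold minimum. By adjusted p alone, 2 of these 7 members were lower, beside 5.38% of all genes.

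Whether the KBTBD8 difference passed varied with the libraries used. Under DMSO it was -0.49 (adjusted p = 0.615, quasi-likelihood test of edgeR) and under Dox -1.28 (adjusted p = 0.0332, called, beside 2.98% of all genes called lower), with the difference between these values, -0.79 (standard error 0.47), not tested. With GFP DMSO replicate 1, SMARCB1 DMSO replicate 2 or SMARCB1 Dox replicate 2 left out, its adjusted p was 0.137, 0.113 and 0.121 in edgeR's quasi-likelihood test. Without GFP Dox replicate 1, its highest library, the value was -0.75 (adjusted p = 0.0499, quasi-likelihood test of edgeR). With GFP DMSO replicate 2, GFP Dox replicate 2, SMARCB1 DMSO replicate 1 or SMARCB1 Dox replicate 1 left out, it passed the fold minimum as well, at -1.02, -1.003, -1.05 and -1.13.

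For KBTBD7 the difference between the lines was -0.56 (standard error 0.20) over both treatments and -0.01 (standard error 0.28) under DMSO, with 27.6 ± 6.68 CPM in SMARCB1 DMSO and 27.7 ± 1.22 CPM in GFP DMSO (SD, n = 2 each). No test is given, because the mean over treatments includes the SMARCB1 Dox libraries that chose the gene. KBTBD6, KBTBD2 and CUL3 had log2 differences of -0.15, 0.03 and -0.02, KBTBD4 had -0.51 (standard error 0.20) and KBTBD3 -0.69 (standard error 0.82). The first 4 did not pass, with adjusted p of 0.777, 0.955, 0.980 and 0.120 in edgeR's quasi-likelihood test, nor did KBTBD3 with 0.691. The signs of 4 of these were not firm. Without GFP Dox replicate 2 KBTBD6 was at 0.09 and KBTBD3 at 1.93. That leaves GFP Dox with 0 counts of KBTBD3, so its 1.93 has no fixed size. Without SMARCB1 DMSO replicate 1 KBTBD2 was at -0.11, and without SMARCB1 DMSO replicate 2 CUL3 was at 0.16.

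The wider CUL3 system was described with 7 lists of genes by their known role. The adaptors with a BTB domain other than the members numbered 66, of which 46 were tested. In the SMARCB1 line 2 were called higher and 0 lower, beside 3.89% and 3.46% of all genes. Both called genes passed the filter on low counts only through the SMARCB1 line, where they were higher. By adjusted p alone 5 adaptors were higher and 4 lower, beside 5.79% and 5.38% of all genes. At an unadjusted p below 0.05 there were 13, beside 2559 of the 11097 genes, and DESeq2 called the same numbers, 2 and 0. The median log2 difference was 0.04 against -0.00 for all genes tested. By level, IVNS1ABP at 210 ± 81.3 and SPOP at 135 ± 24.2 CPM per kb (SD, n = 8) led this list, both above every KBTBD member.

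KLHL29 had 107, 38, 38 and 49 counts in the SMARCB1 line (SMARCB1 Dox, then SMARCB1 DMSO) and 1, 2, 4 and 0 in the GFP line, so it passed the filter on low counts through the SMARCB1 line alone. The SMARCB1 line was higher in each library, with a log2 difference of 4.92 (standard error 0.64, adjusted p = 8.59e-05, quasi-likelihood test of edgeR). KLHL3, which also passed that filter only through the SMARCB1 line, had 30, 14, 22 and 41 counts against 3, 5, 11 and 17. Its log2 difference was 1.80 (standard error 0.50, adjusted p = 0.0315, quasi-likelihood test of edgeR). KLHL29 and KLHL3 were both still called with no filter on low counts. KLHL3 lost its call with any library but GFP Dox replicate 2 left out, at adjusted p between 0.0608 and 0.166 in edgeR's quasi-likelihood test, and under DMSO alone (0.217) and Dox alone (0.182).

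Among 19 known substrates of CUL3 ligases, 15 were tested and 1 was called, beside 7.35% of all genes. By adjusted p alone 1 was higher and 1 lower, beside 5.79% and 5.38% of all genes, and 8 of the 15 were at an unadjusted p below 0.05, beside 2559 of the 11097. This was WNK4, a kinase that regulates salt transport in the kidney and a substrate recruited by KLHL3. It had 73, 65, 21 and 55 counts in the SMARCB1 line (SMARCB1 Dox first) and 9, 7, 14 and 38 in the GFP line. In CPM, 3.503 was the lowest value of the SMARCB1 line and 2.64 the highest of the GFP line, so that the lines did not overlap. The log2 difference was 1.86 (adjusted p = 0.00948, quasi-likelihood test of edgeR), and the call was lost without GFP DMSO replicate 1 (adjusted p = 0.0596), without SMARCB1 Dox replicate 2 (0.0614) and under DMSO alone (0.487). The median of the list was 0.04, and its genes with the highest levels, RHOA and NOLC1, had log2 differences of -0.06 and -0.53 that did not pass.

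The 9 target genes of NFE2L2, the transcription factor that the CUL3 adaptor KEAP1 holds low, were all tested. NQO1, a quinone reductase, was higher in the SMARCB1 line, at 504 and 358 CPM in GFP Dox and 412 and 390 CPM in GFP DMSO against 893 and 761 CPM in SMARCB1 Dox and 773 and 1058 CPM in SMARCB1 DMSO. SLC7A11, the cystine transporter, was higher as well, with 12.9 to 16.9 CPM against 3.81 to 7.25 CPM. OSGIN1 went the other way, with 0.467 to 1.90 CPM in the SMARCB1 line against 2.88 to 5.32 CPM. The log2 differences were 1.07 for NQO1, 1.21 for SLC7A11 and -2.08 for OSGIN1, with adjusted p of 0.00126, 0.00771 and 0.00981 in edgeR's quasi-likelihood test.

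With these, 2 of the 9 targets were called higher and 1 lower, beside 3.89% and 3.46% of all genes, and the median of the 9 was 0.02. TXNRD1, second in level to NQO1 at 494 ± 27.5 CPM per kb (SD, n = 8), had -0.04. The call of NQO1 was lost to the fold minimum without GFP Dox replicate 2 (0.95) or SMARCB1 DMSO replicate 2 (0.94), and under Dox alone (0.94). That of SLC7A11 was lost without SMARCB1 Dox replicate 1 (adjusted p = 0.0514, quasi-likelihood test of edgeR) and under DMSO alone (0.197). That of OSGIN1 was lost without GFP DMSO replicate 2, SMARCB1 DMSO replicate 2 or SMARCB1 Dox replicate 1 (adjusted p of 0.0788, 0.0540 and 0.0597, quasi-likelihood test of edgeR) and under Dox alone (0.292).

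Between the lines edgeR called 7.35% of all genes, and DESeq2 called 455 higher and 413 lower. In the remaining lists both called 0 genes. These were the 25 genes of the ligase core, neddylation and the COP9 signalosome (25 tested, 2 at an unadjusted p below 0.05, median -0.03), the 7 other cullins (7 tested, 2, median -0.18), the 7 genes of the GABARAP and LC3 family (5 tested, 1, median 0.26) and the 27 genes of the RAC pathway (20 tested, 5, median 0.05). Among all genes 2559 of 11097 were at an unadjusted p below 0.05. By adjusted p alone 5.79% of all genes were higher and 5.38% lower. By that rule 1 cullin was higher (CUL4B, 0.63) and 1 lower (CUL2, -0.64), and the other 3 lists had 0. These cullins are named after their values were seen. The highest levels in these lists were those of COPS6 and COPS5, of CUL1 and CUL4A, of GABARAPL2 and MAP1LC3C, and of BRK1 and ARHGDIA. By mean, CUL3 at 160 CPM per kb stood above CUL1 at 124 ± 34.4 and CUL4A at 102 ± 8.09 CPM per kb (SD, n = 8). The CUL3 libraries ran from 111 to 193 CPM per kb, a range that includes the CUL1 mean.

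In both Dox comparisons edgeR and DESeq2 called 0 genes in each of the 7 lists. Of all 11097 genes, edgeR called 2 higher and DESeq2 26 higher and 8 lower in SMARCB1 Dox against SMARCB1 DMSO. Both called 0 of all genes in GFP Dox against GFP DMSO. At an unadjusted p below 0.05 there were 3 BTB adaptors and 1 NFE2L2 target in SMARCB1 Dox against SMARCB1 DMSO and 0 in the other 5 lists, beside 552 of all 11097 genes. In GFP Dox against GFP DMSO there were 0 in every list, beside 240 of all genes. The medians of the lists in SMARCB1 Dox against SMARCB1 DMSO ran from -0.23 for the GABARAP and LC3 family to 0.08 for the BTB adaptors, beside -0.02 for all genes tested.

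**Figure D5:**
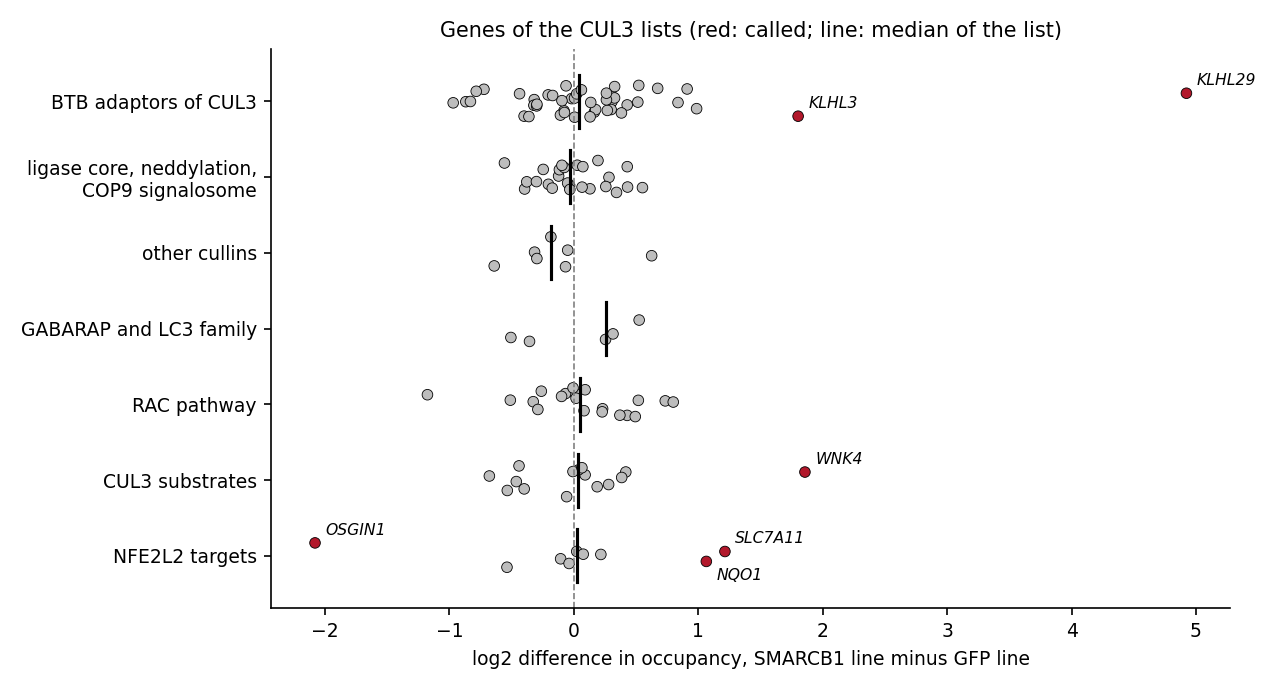
Log2 difference in ribosome occupancy between the SMARCB1 line and the GFP line for each tested gene of the 7 lists; red points are called, black lines are list medians, and the vertical spread within a list has no meaning. KLHL29, KLHL3, WNK4, SLC7A11 and NQO1 lie to the right and OSGIN1 to the left.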

How the data were processed

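The authors isolated translating ribosomes with RiboLace, built libraries with LaceSeq, aligned reads with STAR to hg38 and counted them with HTSeq (mode intersection-strict, coding sequences of GENCODE). The deposited values are these raw counts per gene, without normalization. Versions of STAR and HTSeq, adapter handling and the strand option are not given in the sources used here. HTSeq's summary lines stayed out of library sizes; coding sequences took 52.8% to 61.8% of the reads that aligned once. The authors pooled several plates of a condition at harvest and state that the experiments were in duplicate. Neither this nor the labels say whether replicates came from separate cultures. The p-values thus measure the spread between these libraries, which may be technical. Replicates differed by more than sampling noise (chi-square per degree of freedom 14.5 to 45.5).

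Symbols, positions and coding lengths came from GENCODE 44, and 293 IDs had no match. R 4.3.3, edgeR 4.0.16 (filterByExpr, TMM, glmQLFit over 8 libraries with 1 term per group) and DESeq2 1.42.0 were used, with Python 3.11.15 for windows and alignments. A call needs a Benjamini-Hochberg adjusted p below 0.05 together with a fold change over 2. Standard errors came from the quasi-likelihood F statistic. Limits use 3 counts for a count of 0. The test was also run on simulated counts, but the outcome is not given here and nothing rests on it.

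The genes named are the members, the genes called in each list (at most 6 for a list and direction), the 2 with the highest level in each list, the 3 neighbours with counts on either side of the paralogs, and the 5 genes most like KBTBD7 and KBTBD6. The members and lists were chosen with earlier results of these data known. Alternatives were other scalings, filters, DESeq2, robust quasi-likelihood, a replicate block, only the groups compared, no fold minimum, single treatments, each library left out, and windows of 24 and 32 bases.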

Additional observations from a re-analysis of the deposited data

Results flagged for a closer look

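KBTBD3 was marked because its Dox libraries lay above its DMSO libraries in the SMARCB1 line and below them in the GFP line. Its counts were 13 and 6 (SMARCB1 Dox), 3 and 2 (SMARCB1 DMSO), 0 and 6 (GFP Dox) and 26 and 18 (GFP DMSO). The log2 Dox effect in the SMARCB1 line minus that in the GFP line was 3.65 (standard error 1.60), and 8.89 without GFP Dox replicate 2, which leaves 0 counts in GFP Dox. The difference was not tested, since it shares the SMARCB1 libraries with the choice of KBTBD7. Over all genes, edgeR called 0 for this difference (443 at an unadjusted p below 0.05, and 1 by DESeq2).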

How the results depend on the processing

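Depth limits KBTBD3 and TIAM1 most, and with 2 libraries in a group a left-out fit assumes that the lone library varies like the other groups. The call of TIAM1 between the lines held under every alternative that tested it, each left-out library included. With at least 10 counts asked of each library TIAM1 and KBTBD3 were not tested, nor was KBTBD3 without GFP DMSO replicate 1. KBTBD7 between SMARCB1 Dox and SMARCB1 DMSO lay between -1.68 and -1.18 with 1 library left out and between -1.44 and -1.35 under other settings. Scaling by library size alone moved the median of all genes from -0.02 to 0.09 in that comparison and from -0.03 to 0.16 in the difference of the Dox effects. The cause was not tested for any change below.

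Some log2 differences reversed. Between the lines this held under Dox alone for KBTBD6 (0.017), KBTBD3 (1.14) and CUL3 (0.086), under DMSO alone for KBTBD2 (-0.095), and with library size alone for CUL3 (0.032). With 1 library left out the line values ran from -0.32 to 0.085 for KBTBD6 and -0.11 to 0.15 for KBTBD2. They ran from -1.15 to 1.93 for KBTBD3, whose upper end has no fixed size, and -0.24 to 0.16 for CUL3. In GFP Dox against GFP DMSO they ran from -0.71 to 0.10 for KBTBD6, -0.28 to 0.038 for KBTBD4, -0.15 to 0.51 for KBTBD8 and -0.31 to 0.12 for CUL3.

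Counts of called genes moved as well. For GFP Dox against GFP DMSO, no filter gave 13 higher and 1 lower, and left-out libraries 0 to 101 higher and 0 to 46 lower. Between the lines, 432 higher became 276 under DMSO alone and 223 when each library had to hold 10 counts or more, and 384 lower became 196 with that filter and 597 with no fold minimum, while left-out libraries gave 343 to 568 higher and 320 to 435 lower. For SMARCB1 Dox against SMARCB1 DMSO, 2 higher and 0 lower became 26 and 8 with DESeq2, 38 and 8 with no filter, 1 higher with at least 10 counts and 5 higher with only the groups compared; left-out libraries gave 1 to 16 higher and 0 to 6 lower. For the difference of the Dox effects, DESeq2 gave 1 higher and no filter 10 higher and 5 lower, and left-out libraries 0 to 38 higher and 0 to 67 lower. Unique windows made up 63.5% and 68.7% of KBTBD7 and 62.9% and 68.3% of KBTBD6 with 24 and 32 bases.

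Libraries share only a replicate number. Over the 6 pairs of groups, deviations of libraries with the same number correlated at 0.0454 to 0.280, and 5 of the 6 values were above 0.1. A shared effect of the number is therefore possible, but the labels name none and 1 value fell short, so the block remains an alternative. The replicate block gave 440 higher and 399 lower between the lines, 9 higher and 4 lower for SMARCB1 Dox against SMARCB1 DMSO, and 0 in either direction for GFP Dox against GFP DMSO and for the difference of the Dox effects.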

Other observations

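The 5 genes whose log2 CPM over the 8 libraries was most like that of KBTBD7 among the 11097 tested were IPP, WDR17, PIP4K2C, C3orf18 and LTBR, with Pearson r of 0.975, 0.961, 0.959, 0.933 and 0.932. IPP is itself a BTB and Kelch protein and is among the adaptors listed. It had 15.1 and 17.6 CPM in SMARCB1 Dox and 28.5 and 22.3 CPM in SMARCB1 DMSO, with 24.1 to 27.8 CPM in the GFP line. As with KBTBD7, both SMARCB1 Dox libraries were the lowest of the 8. WDR17 had 9.62 and 11.1 CPM in SMARCB1 Dox and 30.7 and 18.1 CPM in SMARCB1 DMSO. LTBR had 0 CPM in both SMARCB1 Dox libraries but at most 2.06 CPM elsewhere. These genes were picked for likeness over libraries that include those that chose KBTBD7, so r is a description.

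The genes most like KBTBD6 were USP7, ARIH1, PEX10, LDB1 and ENDOG, with r of 0.981, 0.972, 0.971, 0.968 and 0.963. ARIH1, a ligase that works with neddylated cullins, had 54.1 CPM in GFP Dox replicate 1 and 102 CPM in replicate 2, the lowest and the highest of its 8 values, which are the libraries where KBTBD6 was also lowest and highest. Between the paralogs themselves r was 0.01, and r of KBTBD7 with the other 6 members ran from -0.17 (KBTBD3) to 0.74 (KBTBD4).

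On chromosome 13 the neighbours with counts are WBP4, ELF1 and SLC25A15 on the side of KBTBD6, and MTRF1, NAA16 and RGCC on that of KBTBD7. In SMARCB1 Dox against SMARCB1 DMSO their log2 differences were -0.03, 0.06, 0.36, -0.04 and -0.24 for the first 5, with standard errors of 0.25, 0.31, 0.30, 0.52 and 0.27, and RGCC had 0 to 2 counts. Between the lines SLC25A15 had -0.74 (adjusted p = 0.0352, quasi-likelihood test of edgeR), short of the fold minimum. By adjusted p alone 5.38% of all genes were lower. WBP4, ELF1, MTRF1 and NAA16 did not pass, with adjusted p of 0.646, 0.358, 0.515 and 0.963 in edgeR's quasi-likelihood test.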
